A study of Mus musculus with 6 samples.

Results

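Accessible chromatin was described at 10 genes of the fibroblast growth factor (FGF) system, the 4 receptor genes Fgfr1, Fgfr2, Fgfr3 and Fgfr4 and the 6 ligand genes Fgf2, Fgf5, Fgf7, Fgf9, Fgf10 and Fgf18. The cells were cultured mouse dermal fibroblasts, either lacking Lap2alpha (genotype label Lap2alpha KO, 3 libraries) or wildtype (WT, 3 libraries), and open chromatin was profiled by ATAC-seq, which reads out where a transposase can cut into DNA. Lap2alpha is a splice product of Tmpo that binds A-type lamins, and the series title names chromatin reorganization after its loss. No label gives the strain, age or sex of the animals, the way in which the KO cells were made, or whether the 3 libraries of a genotype came from separate animals. Each genotype had 1 peak list covering its libraries together. The members were all peaks whose summit lay in the RefSeq span of a gene or within 50 kb of either end, which took in 96 of 98072 KO peaks and 114 of 106132 WT peaks. Just inside that limit lay a shared peak of Fgfr1 at 49720 bp from the gene in KO and 49715 bp in WT, at signal percentiles of 98.8 in KO and 96.7 in WT. Just outside lay a shared peak of Fgf9 at 51601 bp, at 15.8 in KO and 23.1 in WT.

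FGF ligands are secreted proteins that bind receptor tyrosine kinases together with heparan sulfate and signal through the Ras and MAP kinase cascade. In skin, Fgf7 and Fgf10 are made by dermal mesenchyme and act on the Fgfr2 splice form of the epidermis, and Fgf5 ends the growth phase of the hair follicle. Fgf2, Fgf9 and Fgf18 act on mesenchymal cells, and Fgfr1 is the main FGF receptor of fibroblasts.

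The 2 lists cannot be compared in height, because the deposited signal is an area with no scaling between them. The height of a peak is therefore given as its signal percentile within its own list. A peak was called KO-only or WT-only where not even 1 bp of it was covered by a peak from the other genotype. With 1 list per genotype there was no replicate spread, no difference below was tested, and a peak missing from a list cannot be told from one just under the calling threshold. The sequencing depth behind either list is unknown. Among fibroblast marker genes, 11 of 12 had a peak within 1 kb of a gene end in both lists, all except Lum, against 56.1% of all 21887 protein-coding genes. The same held for 2 of 7 keratinocyte, 2 of 5 endothelial, 2 of 5 leukocyte and 4 of 6 melanocyte or Schwann cell markers, while Krt5, Pecam1 and Ptprc had none in either list. The promoter of Tmpo carried a peak in both lists, at percentiles of 95.1 in KO and 95.6 in WT, which does not check the knockout, because the gene also encodes other splice forms.

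Promoter sequence was at hand for 9 of the 10 genes, all but Fgfr1, from RefSeq (GRCm38.p6). The 250 bases before the annotated start site are shown for 6 genes that differ in their promoter peaks. Fgf2, Fgf7 and Fgf10 had a promoter peak in both lists, Fgf5 in neither, and Fgfr2 and Fgfr3 in KO only. Capitals mark matches on either strand to the GC box (GGGCGG), the CCAAT box (CCAAT), the TATA box (TATAAA), an AP-1 site (TGANTCA) or a TEAD site (GGAATG). No match shown overlaps a match to another motif, and a match is a description of the letters, not a binding site. For Fgfr3 the upstream one of its 2 entries is given.
Fgf2, chr3:37348403-37348652, plus strand: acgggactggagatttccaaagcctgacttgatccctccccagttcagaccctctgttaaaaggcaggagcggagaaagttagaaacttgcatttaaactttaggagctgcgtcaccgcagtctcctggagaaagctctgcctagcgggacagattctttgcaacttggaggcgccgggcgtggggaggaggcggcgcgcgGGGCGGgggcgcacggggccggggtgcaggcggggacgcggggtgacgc
Fgf7, chr2:126034408-126034657, plus strand: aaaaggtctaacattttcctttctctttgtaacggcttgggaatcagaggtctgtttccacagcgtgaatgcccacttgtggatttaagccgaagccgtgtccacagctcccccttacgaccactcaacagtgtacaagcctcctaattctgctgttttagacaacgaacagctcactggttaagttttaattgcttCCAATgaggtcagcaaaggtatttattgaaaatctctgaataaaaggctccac
Fgf10, chr13:118714449-118714698, plus strand: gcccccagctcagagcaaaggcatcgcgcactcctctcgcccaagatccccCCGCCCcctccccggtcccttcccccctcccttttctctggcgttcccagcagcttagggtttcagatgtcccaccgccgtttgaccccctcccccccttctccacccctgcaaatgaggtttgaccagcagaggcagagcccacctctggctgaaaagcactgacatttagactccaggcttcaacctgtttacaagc
Fgf5, chr5:98253934-98254183, plus strand: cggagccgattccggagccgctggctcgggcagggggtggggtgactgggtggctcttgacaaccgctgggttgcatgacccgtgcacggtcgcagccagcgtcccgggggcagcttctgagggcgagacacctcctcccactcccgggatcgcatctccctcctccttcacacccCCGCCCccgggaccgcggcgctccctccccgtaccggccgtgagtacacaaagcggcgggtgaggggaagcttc
Fgfr2, chr7:130266809-130267058, minus strand: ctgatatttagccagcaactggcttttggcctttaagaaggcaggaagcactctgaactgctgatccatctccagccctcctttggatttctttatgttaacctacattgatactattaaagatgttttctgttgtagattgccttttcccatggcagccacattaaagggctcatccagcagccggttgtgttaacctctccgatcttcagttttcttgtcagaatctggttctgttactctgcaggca
Fgfr3, chr5:33721474-33721723, plus strand: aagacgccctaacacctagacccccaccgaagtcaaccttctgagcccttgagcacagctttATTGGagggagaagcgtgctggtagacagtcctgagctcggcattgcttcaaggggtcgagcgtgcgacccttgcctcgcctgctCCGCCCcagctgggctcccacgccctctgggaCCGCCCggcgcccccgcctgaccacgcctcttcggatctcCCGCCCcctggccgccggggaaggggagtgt

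Across the 10 promoter entries of the 9 genes, a GC box was found in 7 and a CCAAT box in 2. In all 21263 promoter entries of protein-coding genes the shares were 42.6% and 35.4%. No entry of the 9 genes held the letters of the TATA box, the AP-1 site or the TEAD site, which 11.6%, 6.13% and 11.7% of all entries held. The Fgf7 promoter, with 43.6% G and C bases, had its CCAAT match beginning 53 bases before the start site. The Fgf2 promoter had 62.4% G and C, with its GC box beginning 49 bases before the start. The promoter of Fgf5 was richer, with 70.8%, and that of Fgfr2 poorer, with 44% and no match to any of the motifs, against a median of 55.6% over all entries. A promoter rich in G and C was therefore seen both with a peak (Fgf2) and without one (Fgf5).

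Within 50 kb, WT-only peaks outnumbered KO-only peaks at the ligand genes, while the receptor genes had similar numbers of both. The 6 ligand genes together held 1 KO-only and 24 WT-only peaks. The 4 receptor genes held 11 KO-only peaks and 10 WT-only ones, but the order depended on the window, with 4 and 7 in the gene spans alone, 7 and 9 within 10 kb and 11 and 14 within 100 kb. At the ligands, KO-only peaks made up 2.33% of the 43 KO peaks, against 13.4% of all KO peaks, and WT-only peaks made up 39.3% of the 61 WT peaks, against 20.4% of all WT peaks. At the receptors the shares were 20.8% of 53 KO peaks and 18.9% of 53 WT peaks. Whether ligands and receptors differ was not tested. Over all 10 genes, 12 of 96 KO peaks were KO-only, a share of 12.5% that lies near the background, and 34 of 114 WT peaks were WT-only, a share of 29.8%.

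**Figure D1:**
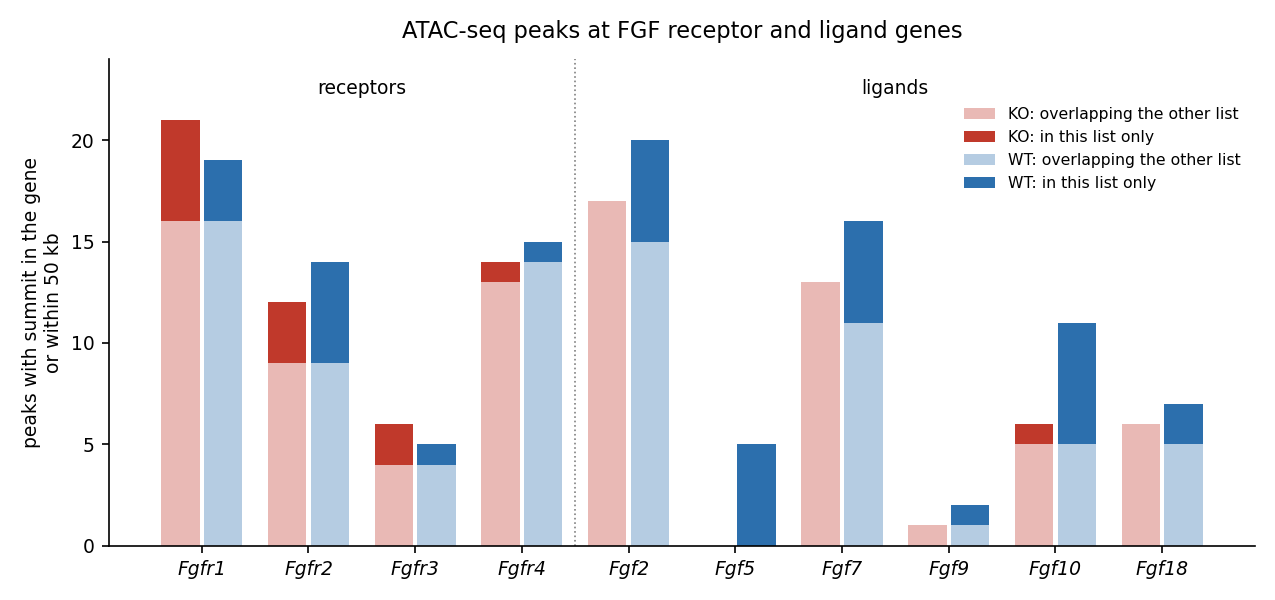
Number of peaks with a summit in each gene or within 50 kb of it, KO bar left of WT bar, with the solid part showing peaks found in that list only. The solid KO part is present at all 4 receptors and, among the ligands, at Fgf10 with 1 peak, while every ligand has a solid WT part of 1 to 6 peaks.

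By gene, all 6 ligands had more WT-only than KO-only peaks, as did 46.6% of 21887 protein-coding genes. The excess was 5 peaks each at Fgf2, Fgf5, Fgf7 and Fgf10. An excess of at least 5, a cutoff equal to these values, was seen at 6.4% of all genes. The window of a gene held a median of 9 WT peaks over all genes, against 20 at Fgf2, 16 at Fgf7, 11 at Fgf10 and 5 at Fgf5, and genes with similar peak numbers were not compared. Both lists were also cut to their 73554 peaks of highest signal, a number equal to 75% of the shorter list. The excess was then 3 at Fgf2, 4 at Fgf5, 2 at Fgf7 and 4 at Fgf10. Within 10 kb, with the full lists, the excess was 0 at Fgf5. Among the receptors, Fgfr1 and Fgfr3 had more KO-only peaks, as did 22.9% of all genes, Fgfr2 had more WT-only peaks, and Fgfr4 had equal numbers. The median excess over all genes was 0. These peaks were weak. The 24 WT-only peaks of the ligands had a median percentile of 20.8 and reached 52.5, the single KO-only peak stood at 28.7, and the 11 KO-only and 10 WT-only peaks of the receptors had medians of 14.4 and 14.3. Above the middle of its own list by signal, no KO-only peak and 1 WT-only peak remained at the 10 genes, which lay near Fgf5. Over the whole lists, KO-only and WT-only peaks were weak as well, with medians of 16.5 and 17.8. There, 1181 of 13162 KO-only and 1851 of 21693 WT-only peaks stood at or above percentile 50.

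Fgf2, which encodes basic FGF, lies on chromosome 3 from 37348477 to 37410106 and had 17 KO and 20 WT peaks in its window. All 17 KO peaks overlapped a WT peak, and 5 of the WT peaks were WT-only. At the start site, the KO list held 3 narrow peaks, 37348106 to 37348638, 37348885 to 37349120 and 37349273 to 37349816, with percentiles of 41.9, 15.8 and 39.0. The WT list held 1 peak there, from 37347913 to 37349957, at percentile 87.6. The KO peaks lay inside the WT peak, and an area split over 3 peaks gives each a smaller signal. By signal per length the KO peaks stood at 19.7, 16.6 and 14.5 and the WT peak at 49.0. The region then differed by -29.3 points, against -45.7 by signal. The GC box shown above was in the first KO peak. The start site of the promoter entry fell in the gap after that peak, while the start of the gene span, 37348477, lay inside the peak. Of 81460 regions with peaks in both lists, 3.51% had more KO than WT peaks, and at the 10 genes 6 of 76 such regions did. They were 4 of 36 ligand regions and 2 of 40 receptor regions. More WT than KO peaks were found at 0 ligand and 3 receptor regions, and at 3.03% of all.

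The strongest peaks within Fgf2 had closer ranks in the lists than the start site had. Inside the gene, 12155 bp beyond the start, a peak stood at percentile 93.5 in KO and 95.7 in WT, and 22003 bp beyond it one stood at 89.8 in KO and 93.4 in WT. A region 8749 bp beyond the start was at 25.3 in KO and 65.7 in WT. The highest peak of the window, at 99.6 in KO and 99.8 in WT, covered the promoters of the neighbours Nudt6 and Spata5. The WT-only peaks lay 5670 and 1965 bp before the start and 6277, 11518 and 16684 bp beyond it, at percentiles of 7.78 to 41.0. In the 5 Mb on either side, the KO list had 80.1% as many peaks as the WT list, and 28.6% of WT peaks were WT-only, so the difference at Fgf2 cannot be told apart from one of its surroundings.

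Fgf7, the keratinocyte growth factor gene, lies on chromosome 2 from 126034658 to 126091185, inside the span of Fam227b, and had 13 KO and 16 WT peaks. Its promoter was strongly open in both lists. The promoter peak ran from 126033091 to 126036736 in KO, at percentile 99.3, and from 126032844 to 126036525 in WT, at percentile 99.5, with summits 155 and 151 bp before the start site. Another strong peak, 3370 bp before the start, stood at 93.9 in KO and 96.3 in WT. Weaker regions inside the gene ranked lower in KO by signal. The region from 126038233 to 126039003 was at 12.8 in KO and 55.0 in WT, and the one from 126053042 to 126054092 was at 36.3 in KO and 62.7 in WT. By signal per length the former differed by -11.6 points, where a KO peak of 273 bp faced a WT peak of 771 bp. The latter turned to 29.0 points higher in KO, where 2 KO peaks faced 1 WT peak of 1051 bp. The region 30560 bp beyond the start was at 83.7 in KO and 81.8 in WT. Its 5 WT-only peaks were all at or below percentile 18.6, and there was no KO-only peak.

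Fgf10, which signals from mesenchyme to epithelium, lies on chromosome 13 from 118714699 to 118792573 and had 6 KO and 11 WT peaks. A promoter peak was called in both lists, but it did not rest on the same peaks. The main peak ran from 118714856 to 118716065 in KO, at percentile 70.2, and from 118714619 to 118716675 in WT, at percentile 88.3. A small peak before the start was at 17.0 in KO and 31.0 in WT. In the KO list this small peak alone reached the promoter window, while in WT the main peak reached it as well. Near the far end of the gene, 75032 bp beyond the start, a region stood at 24.1 in KO and 62.8 in WT. By signal per length this region differed by only -6.19 points, where a KO peak of 239 bp faced a WT peak of 758 bp. Within the gene body, 1 peak was KO-only, at percentile 28.7, and 5 were WT-only, at 16.5 to 47.2. The KO-only peak, from 118763096 to 118763474, had a WT-only peak beginning at 118763652, so this pair lay side by side and did not overlap. Fgf10 had 54.5% as many KO as WT peaks, against 88.9% in the 5 Mb on either side.

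Fgf5, on chromosome 5 from 98254184 to 98277033, had 0 KO peaks and 5 WT peaks. Windows with at least 5 WT peaks and no KO peak were found at 0.174% of all protein-coding genes, a criterion chosen after the values of Fgf5 were seen. None of the 5 lay in the gene or at its promoter. They lay, in gene order, 39257, 33265 and 16421 bp before the start and 36654 and 37202 bp beyond it, at percentiles of 52.5, 43.1, 31.5, 42.7 and 1.59. Of all WT peaks between percentiles 40 and 50, 15.9% were WT-only, and between 50 and 60 the share was 8.98%. The KO peak nearest to Fgf5 lay 52493 bp from the gene, at percentile 56.8, just beyond the window, and overlapped a WT peak. In the surrounding 5 Mb on either side, the KO list had 66.9% as many peaks as the WT list, and 40.5% of WT peaks were WT-only. Fgf5 thus lay in a region with fewer KO peaks, and the gene cannot be told apart from it.

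**Figure D2:**
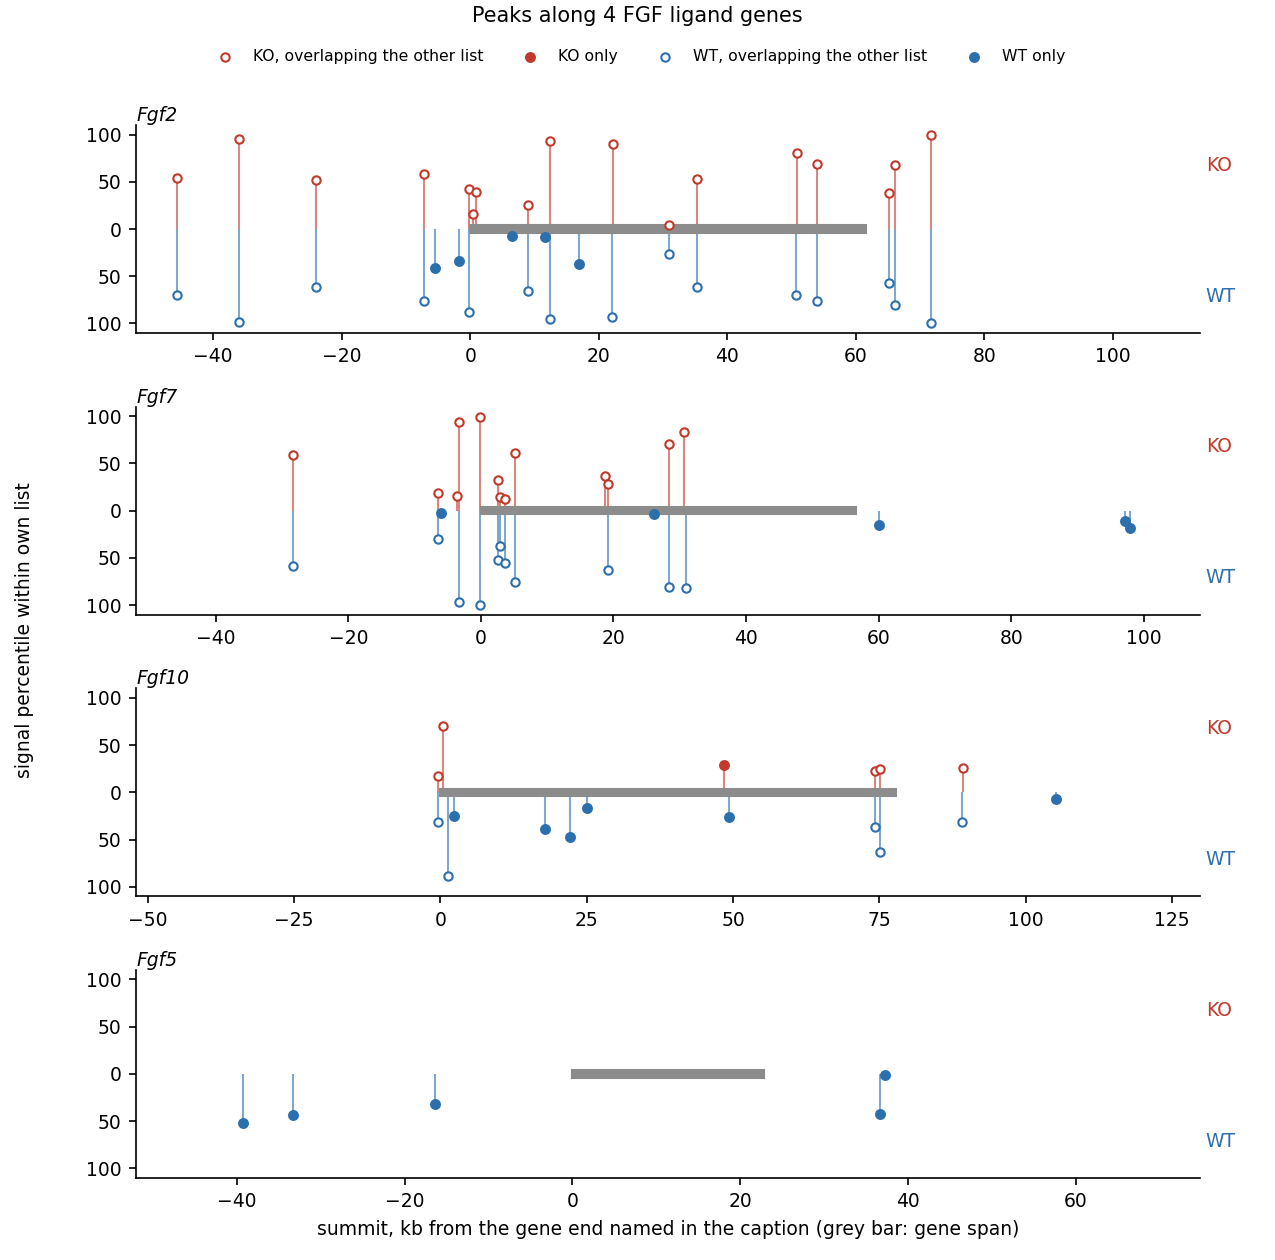
Peaks along Fgf2, Fgf7, Fgf10 and Fgf5, plotted by the distance of the summit from the start of the gene span in kb, with the signal percentile of KO peaks drawn upwards and of WT peaks downwards, filled where the peak is in 1 list only. At Fgf2 the WT start-site peak at percentile 87.6 faces 3 KO peaks of 41.9 or lower, at Fgf7 the promoter peak stands at 99.3 and 99.5, and at Fgf5 only the WT side holds peaks.

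Fgf18 and Fgf9 had few peaks. Fgf18, a ligand known from bone and hair follicle growth, lies on chromosome 11 from 33116970 to 33147400 on the minus strand and had 6 KO and 7 WT peaks. Its promoter window held no peak, but a peak with a summit 1197 bp before the start stood at percentile 80.1 in KO and 85.3 in WT. Another inside the gene stood at 68.1 in KO and 72.7 in WT. The 2 WT-only peaks, at percentiles of 23.1 and 15.7, lay on either side of the start. Fgf9, on chromosome 14 from 58070671 to 58112854, had 1 KO peak and 2 WT peaks. The shared one, from 58034687 to 58034813 in KO and from 58034681 to 58035025 in WT, was at 13.9 in KO and 26.8 in WT. The WT-only one, inside the gene span and 540 bp before the start site of its promoter entry, was at 3.16.

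Regions called in both lists also ranked lower in KO at the ligand genes. Overlapping peaks of both lists were merged into regions, and the highest percentile of each list was compared. An area split over more peaks therefore gives a list a smaller value. At the ligands the KO list had more peaks in 4 of 36 regions and the WT list in 0. The part of such splits in the rank difference was not tested. Of 36 shared regions at the ligands, 32 had a lower percentile in KO, or 88.9%, against 59.2% of all shared regions. The median difference, KO minus WT, was -10.9 percentile points at the ligands, -0.49 at the 40 regions of the receptors and -1.55 over all shared regions. A percentile at least 20 points lower in KO was found at 8 ligand regions and 1 receptor region, of which Fgf2 and Fgf7 had 3 each, and at 11% of all shared regions. By gene, the medians were -10.2 at Fgf2, -10.9 at Fgf7, -15.2 at Fgf10 and -5.14 at Fgf18, against -7.76, -3.48, -1.71 and -0.40 in the 5 Mb on either side. When signal was divided by peak length before ranking, the median was -9.98 at the ligands and -1.37 over all shared regions, and 69.4% of ligand regions ranked lower in KO, against 54.2% of all. On that scale Fgf18 and Fgf9 turned the other way, with a median of 13.9 at Fgf18 and 36.5 at the single region of Fgf9. The receptors Fgfr1 and Fgfr2 turned as well, with medians of -3.15 and 1.02 per length, against 1.06 and -1.19 by signal. The KO peak of that Fgf9 region was 127 bp long and the WT peak 345 bp.

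**Figure D3:**
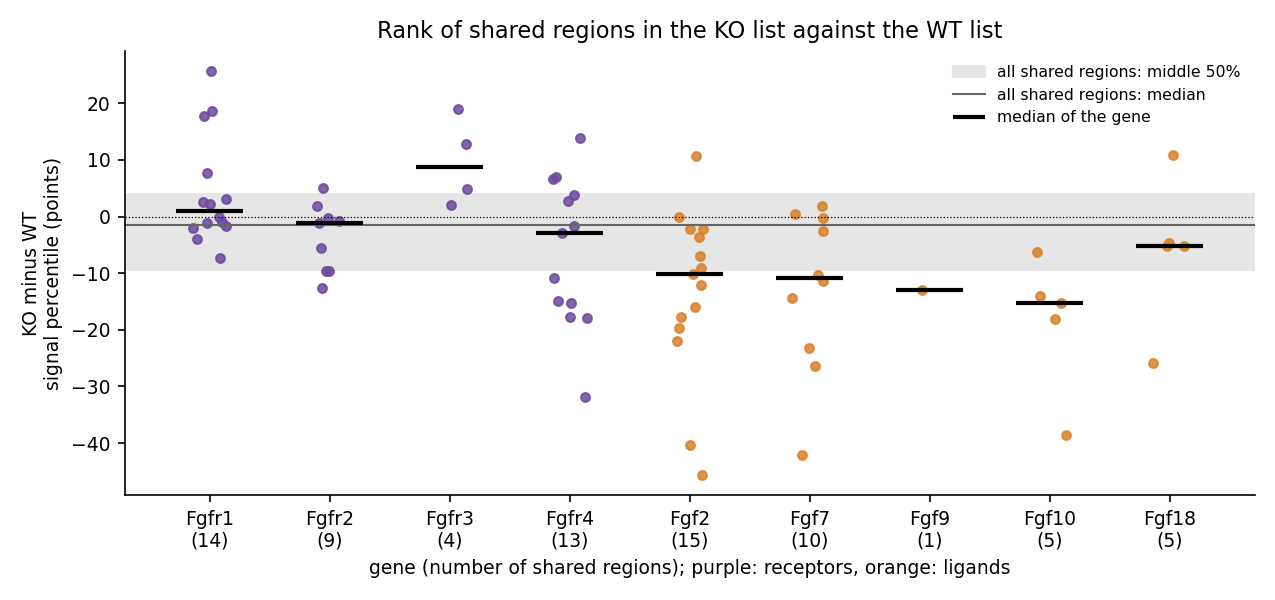
Signal percentile in KO minus that in WT for each region with peaks in both lists, by gene, with the median of the gene as a black bar and the median (-1.55) and middle 50% of all shared regions in grey. The ligand medians lie between -15.2 and -5.14, below the grey line, and the receptor medians between -2.94 and 8.81.

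Fgfr1 had the most peaks of the 10 genes in the KO list, 21 against 19 in WT. It lies on chromosome 8 from 25518759 to 25575718. At the lower-numbered end of the gene, a peak ran from 25518553 to 25520092 in KO, at percentile 91.0, beside a second KO peak at 40.8, and 1 peak ran from 25518544 to 25520618 in WT, at percentile 95.0. A neighbouring peak inside the gene stood at 92.2 in KO and 93.8 in WT, so the open end of Fgfr1 was at a similar rank in both lists. Far from the gene, 49720 bp below that end, a peak stood at 98.8 in KO and 96.7 in WT. The 5 KO-only peaks had percentiles of 12.7 to 43.8, and 3 of them lay in the flank and 2 in the gene. The 3 WT-only peaks were at 0.34 to 27.8. The highest peak of the window, at 99.4 in KO and 99.5 in WT, lay inside the neighbour Nsd3. Inside Nsd3 as well, a region from 25615558 to 25616094 held 1 KO peak at 37.4 and 2 WT peaks, the higher at 11.6. By signal per length this region ranked lower in KO, by a difference of -6.52 points.

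Fgfr2, whose epithelial splice form receives Fgf7 and Fgf10, lies on chromosome 7 from 130162451 to 130266808 on the minus strand, with 12 KO and 14 WT peaks. The strong peak near its start site had a similar signal percentile in both lists, 93.6 in KO and 94.3 in WT. Its summit lay 1585 bp beyond the start in KO and 1569 bp in WT. By signal per length it stood at 70.8 in KO and 88.5 in WT, a difference of -17.7 points. This peak ran from 130264903 to 130267107 in KO and from 130264911 to 130266690 in WT, so that the KO peak alone reached into the promoter window shown above. A small shared peak about 510 bp before the start was at 9.51 in KO and 22.2 in WT. The call of a promoter peak in KO only therefore rests on the edge of a shared peak. Such a call was made at 0.646% of 17492 genes with a promoter entry, and a WT-only one at 1.62%. Other strong regions inside Fgfr2 stood at 87.0 in KO and 88.2 in WT, and at 80.2 in KO and 78.4 in WT. A peak beyond the far end of the gene, from 130142703 to 130144709 in KO, stood at 96.5, and its WT partner at 96.8. The 3 KO-only peaks were at 0.91, 1.84 and 40.2, and the 5 WT-only peaks, all inside the gene, at 8.42 to 26.3.

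Fgfr3 and Fgfr4, which are best known from cartilage and from liver, had no peak summit inside the gene in either list. Fgfr3, on chromosome 5 from 33721724 to 33737068, had 6 KO and 5 WT peaks. Its promoter held a KO-only peak from 33721622 to 33721824 at percentile 3.83, which covers the GC box matches that begin 71 and 31 bases before the start site. A peak just beyond the far end stood at 61.1 in KO and 42.1 in WT, and the highest one, at 94.5 in KO and 92.5 in WT, covered the promoter of the neighbour Letm1. All 4 shared regions in the window of Fgfr3 ranked higher in KO by signal, and 3 of the 4 did so by signal per length. Only the region just beyond the far end had Fgfr3 as its nearest gene, and the others lay nearer to an end of Tacc3 or Letm1. Fgfr4, on chromosome 13 from 55152818 to 55168759, had 14 KO and 15 WT peaks, none at its promoter. They lay on both sides of the gene, and some lay in the neighbours Zfp346 and Nsd1. The highest in either list was at 93.03 in KO and 90.28 in WT, with its KO summit 37564 bp beyond the start. Each list had 1 peak of its own, at 25.3 in KO and 13.6 in WT. A region from 55184199 to 55185218 stood at 35.1 in KO and 66.9 in WT.

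**Figure D4:**
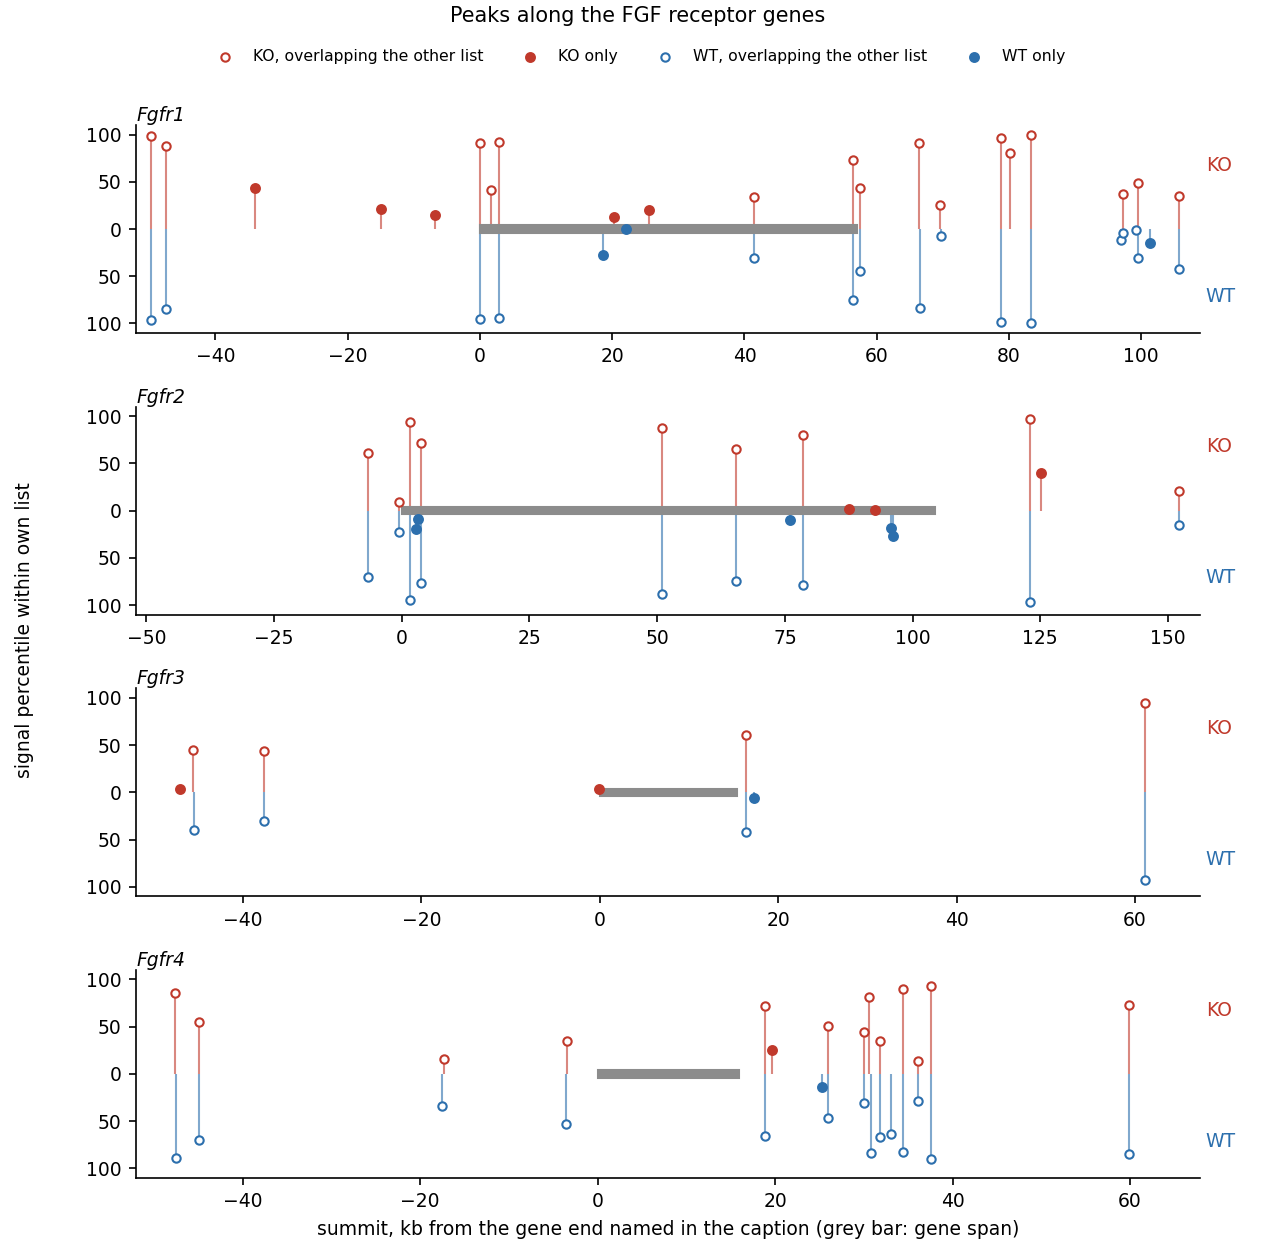
Peaks along the 4 receptor genes, plotted by the distance of the summit in kb from the lower-numbered end of the gene (for Fgfr2, on the minus strand, from its higher-numbered end), with the signal percentile of KO peaks drawn upwards and of WT peaks downwards, filled where the peak is in 1 list only. Strong peaks face each other at similar percentiles, as at the start of Fgfr2 with 93.6 and 94.3, and the filled peaks are at 43.8 or lower.

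The surroundings of the genes differed in peak number. In the 5 Mb on either side of each window, KO peaks numbered between 93.4% and 100.2% of WT peaks around the 4 receptors. Around the ligands it had 66.9% at Fgf5, 80.1% at Fgf2, 88.9% at Fgf10, 91.0% at Fgf7, 93.7% at Fgf9 and 94.2% at Fgf18. Within the windows the ligand values were lower than those of the surroundings at all except Fgf2, with 81.2% at Fgf7 and 85.7% at Fgf18. The part of the surroundings in the difference between ligands and receptors was not tested.

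**Figure D5:**
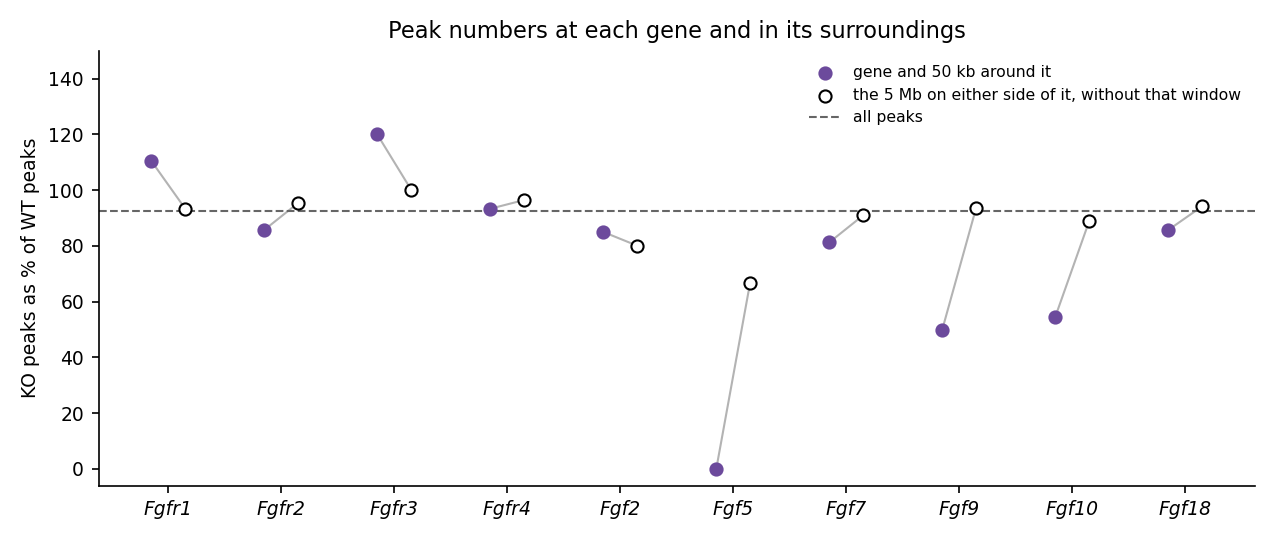
KO peaks as a percentage of WT peaks in the window of each gene (filled) and in the 5 Mb on either side without that window (open), with the value of the whole lists as a dashed line. Fgfr1, Fgfr3 and Fgf2 lie above their surroundings, and Fgf5, Fgf9 and Fgf10 lie furthest below theirs, on 5, 2 and 11 WT peaks.

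Other genes of the FGF family and of the pathway did not share 1 direction. At the 16 other FGF genes, 15 peaks were KO-only and 26 WT-only, shares of 11.5% and 18.8%. More KO-only peaks were counted at 4 of these genes and more WT-only ones at 10, and none of the 10 with a promoter entry had a promoter peak. Fgf22 had 7 KO-only and 0 WT-only peaks, Fgf20 had 0 and 6, Fgf8 had 0 and 5, and Fgf1 had 1 and 4, while Fgf14 and Fgf17 had 1 and 0 each. The 9 coreceptor and binding protein genes counted 6 KO-only and 25 WT-only peaks. The WT-only share of 21.9% lies near the 20.4% of all WT peaks, and the KO-only share was 6.25%, against 13.4% of all KO peaks, with 4 genes having more WT-only peaks, 5 equal and 0 more KO-only. Fgfbp3, of a family of secreted proteins that bind FGFs, had 0 KO-only and 10 WT-only peaks, with a promoter peak at 93.1 in KO and 98.6 in WT. Flrt1 had 0 and 4, Fgfrl1, a receptor without a kinase domain, had 0 and 3, and Flrt2 had a promoter peak in WT only, at percentile 50.7. Fgfbp1 had a peak within 1 kb of a gene end in WT only.

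Genes that relay or limit the FGF signal were open at their promoters in both lists where a promoter entry was at hand. This held for all 12 adaptor and kinase genes and all 11 feedback and target genes with a promoter entry, against 52.3% of the 17492 genes with an entry. A peak within 1 kb of a gene end was in both lists at all 16 adaptor and kinase genes. The same held for 16 of 17 feedback and target genes, all except Spry3, which had 0 peaks in its window in either list. At the 16 adaptor and kinase genes, 22 peaks were KO-only and 47 WT-only, shares of 8.56% and 17.0% that both lie below those of all peaks, 13.4% and 20.4%. There were more KO-only ones at 2 genes and more WT-only ones at 10, among them Cbl, a ubiquitin ligase, at 1 and 8, Gab1 at 2 and 7 and Sos1 at 0 and 4. At the 17 feedback and target genes, 23 peaks were KO-only and 22 WT-only, shares of 11.6% and 11.3%, with 6 genes leaning each way. Fos had 5 KO-only and 0 WT-only peaks, Egr1 had 4 and 1 and Etv4 had 3 and 1. The phosphatase gene Dusp5 had 0 and 5, its relative Dusp6, an inhibitor of ERK, had 0 and 2, and Ccnd1 had 2 and 4. The promoter of Spry2, an inhibitor of receptor signalling, stood at 93.2 in KO and 69.7 in WT, and that of Spry1 at 84.0 in KO and 98.3 in WT, values picked after they were seen. In these sums a peak counts once for each gene whose window holds it.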

How the data were processed

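ATAC-seq peak lists of Lap2alpha KO and WT dermal fibroblasts, 1 for each genotype and each covering 3 libraries, were used as deposited. Bowtie2 2.5.1, Genrich, deepTools 3.5.1 and build GRCm38 are named, per the submitters' processing notes. Neither the settings of Genrich, nor any shift of Tn5 cut sites, nor the way the libraries were combined is given in the sources used here. The deposited score stood at its ceiling for 95.0% of KO and 94.8% of WT peaks and was not used for any result. The deposited signal is an area, at least 200 in both lists, and was used as a percentile within its own list. The −log10 p at the summit, deposited by the authors, served for 1 alternative threshold.

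Coordinates are 1-based on GRCm38. Gene spans of 21887 protein-coding genes and promoter windows (250 bases before to 50 after the start) of 17492 of them came from RefSeq GRCm38.p6 tables. Peaks overlapping by at least 1 bp were shared. The overlap code was tested on simulated data, and its shared counts, 84910 KO and 84439 WT peaks, equalled those of bedtools 2.31.1. Python 3.11.15, numpy 2.4.6, pandas 2.3.3 and matplotlib 3.10.9 were used. No p-value was computed, since each genotype has 1 list. Peaks named in the text were, for each gene, the highest in each list, those at the promoter, and the highest peaks found in 1 list only, with further shared peaks chosen after their values were seen. In each pathway list, up to 3 genes per direction with the largest difference were named, and any gene with a promoter or gene-end peak in 1 list only. Some genes that this rule takes in are not reported here. The genes, their lists and the comparisons were chosen with earlier results of these data known.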

Additional observations from a re-analysis of the deposited data

How the results depend on the processing

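No paired analysis was possible because each genotype has 1 list over its libraries, for which reason no library could be left out either. Lists of equal length held the 73554 peaks of highest signal of each genotype, 75% of the shorter list, so that this setting also removed weak peaks. At the ligands (1 KO-only and 24 WT-only peaks), WT-only peaks were more numerous under every alternative run, but with 0 and 1 left for a summit p at or above the list median, and 0 and 1 in the upper 50% by signal. There were 1 and 11 in the gene span alone, 1 and 16 with 10 kb, 3 and 30 with 100 kb, 2 and 15 with lists of equal length, 0 and 19 when no peak of the other list lay within 1 kb, 1 and 21 for peaks nearest to the gene, and 12 and 30 with a reciprocal overlap of 50%, under which narrower KO peaks inside WT peaks count as KO-only. At the receptors (11 and 10) there were 4 and 7 in the gene span alone, 7 and 9 with 10 kb, 11 and 14 with 100 kb, 5 and 1 with lists of equal length, 9 and 6 under the 1 kb rule, 17 and 17 with reciprocal overlap, 1 and 0 with the stricter summit p and 0 and 0 in the upper 50%. KO-only minus WT-only peaks in the gene span alone came to -3 at Fgf2, 0 at Fgf5, -1 at Fgf7 and -4 at Fgf10. Fgfr2 turned to 1 more KO-only than WT-only peak with lists of equal length and with the stricter summit p. With signal per length the median rank difference was -9.98 at the ligands and -0.41 at the receptors. With summits required in the promoter window, 1 gene (Fgf7) had a promoter peak in both lists in place of 3, and 1 (Fgfr3) in KO only in place of 2. With 10 kb around each gene, KO-only and WT-only peaks numbered 5 and 6 at the other FGF genes, 1 and 13 at coreceptors and binding proteins, 8 and 19 at adaptors and kinases, and 5 and 6 at feedback and target genes. Weak peaks carry these counts, and unknown depth limits them.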
